A study of Mus musculus with 12 samples.

Results

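The livers described here came from 6 of the 12 mice of a bulk RNA sequencing experiment. All 6 had been injected with empty vector (Vec), and they differed in diet. The 3 CD Vec mice ate a chow diet (CD), and the 3 LPD Vec mice ate a low-protein diet (LPD), in which carbohydrate replaced protein and the share of calories from fat was nearly unchanged. They were chosen by the columns of the count table that the labels assign to vector control mice on either diet. The titles call these mice WT, and the column names call them Ctrl_HPD and Ctrl_LPD. HPD stands for a high-protein diet elsewhere in the study, but the titles of those columns name chow and were followed here. Libraries were made from whole liver, 1 per mouse, although the labels give hepatocyte as the cell type.

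The study asked whether eating less protein slows liver cancer. Male mice 8 weeks old began the diets 1 week before a hydrodynamic tail vein injection, which forces plasmid into hepatocytes, and stayed on them until the CD mice injected with oncogenes reached their end point. The other 6 mice of the experiment received human c-MET and an active β-catenin on the same diets, with Sleeping Beauty transposase to insert them. They give a second measurement of the dietary change, and they also enter the estimate of the spread. The study reported a lower tumor burden on LPD when the CD mice with oncogenes reached their end point. In those livers, effects of diet and of tumor burden cannot be told apart. Vec mice underwent the injection too, so they are not untouched animals. Strain is described by the study as a mix of 129/Ola and C57BL/6 in one place and as C57/Bl3 in another, and mouse experiments were generally performed in the early afternoon after a fast.

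Liver breaks down amino acids eaten beyond need, and the urea cycle turns the ammonia released into urea for excretion. When amino acids run short, uncharged tRNAs activate the kinase Gcn2, translation of the transcription factor Atf4 increases, and Atf4 turns on genes for amino acid synthesis, uptake and tRNA charging. Hepatocytes near the portal vein carry most urea synthesis and amino acid breakdown, whereas those around the central vein make glutamine.

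The 6 Vec libraries held 19984390 to 23540178 counts over 27179 genes, of which 13947 had enough counts to be tested. Values below are counts per 1000000 counts (CPM), with library sizes adjusted by the trimmed mean of M values (TMM), and log2 fold changes are LPD over CD with their standard error (SE). A gene was called when its p-value from the quasi-likelihood test of edgeR, adjusted by the Benjamini-Hochberg method over all genes tested, was under 0.05. All 14 hepatocyte identity genes were tested, and their summed level lay between 95090 and 99200 CPM in CD Vec and between 81560 and 110000 CPM in LPD Vec, with overlap. Most of that sum was Alb. Of the 14 genes, 4 were lower and 1 higher on LPD at an unadjusted p under 0.05, with a median log2 fold change of -0.15 and no call. Without CD Vec replicate 2, 2 were lower and 0 higher. In bulk tissue, fewer cells of a type and less RNA per cell cannot be told apart.

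One library stood apart from the other 5. CD Vec replicate 2 had a score of 67.55 on the first principal component of the Vec libraries, which held 41.68% of the variance, whereas the others lay between -20.72 and 0.38. The second component, with 24.16%, placed CD Vec replicates 1 and 3 at -29.36 and -33.41 and the LPD Vec libraries between 3.92 and 30.23, with CD Vec replicate 2 at 10.32 among the latter. Endoplasmic reticulum chaperones summed to 15130 CPM in that library and to between 5791 and 7924 CPM in the other 5. Without it, 5 of the 43 genes called below stayed called (Atf5, Ggct, Orm3, Sulf2 and Them7), and the other 38 had an adjusted p between 0.0604 and 0.132.

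On the low-protein diet 26 genes rose and 17 fell, which is 0.186% and 0.122% of the genes tested. The 2 diets did not overlap for any of these 43, and 38 of them differed at least 2-fold. The smallest adjusted p was 0.00987. At an unadjusted p under 0.05, 605 genes (4.34%) were higher and 772 (5.54%) lower on LPD. No overlap between the diets was seen for 1134 genes (8.13%) that were higher and 1258 (9.02%) that were lower on LPD. The median log2 fold change over all genes was -0.03.

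Few of these calls held whichever mouse was left out. Atf5 alone was called in each of the 6 fits that omitted 1 Vec library. Arhgef2 and Csad lost the call without CD Vec replicate 2 (adjusted p = 0.0604 for both), and Ggct and Sulf2 without LPD Vec replicate 3 (adjusted p = 0.055 and 0.0537). Slc34a2 lost it without CD Vec replicate 2 or 3, and Orm3 without LPD Vec replicate 2 or 3. The other 36 genes were called in at most 3 of the 6 fits. The count of called genes was 103, 8 and 13 without CD Vec replicates 1, 2 and 3, and 44, 6 and 5 without LPD Vec replicates 1, 2 and 3. Since the diets did not overlap for these genes, leaving out 1 library could not reverse their direction. A fit of only the 6 Vec libraries called 3 genes, Csad, Cyp2c69 and Pigr. A term for the run of each library in the file header left 13 of the 43 called, namely Aatk, Arhgef2, Asns, Atf5, Crlf2, Csad, Ggct, Orm3, Pigr, Slc34a2, Slco1a4, Sulf2 and Them7, and the other 30 had an adjusted p between 0.0541 and 0.136.

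**Figure D1:**
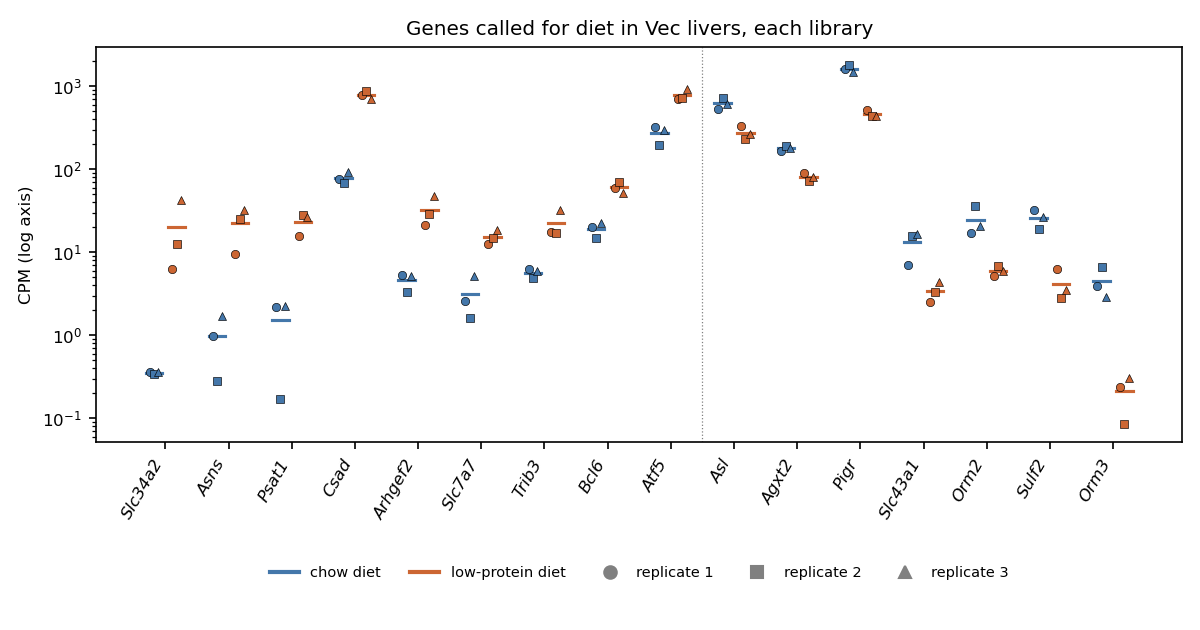
CPM of 16 genes called for diet in each Vec library, on a log axis, with chow in blue and low-protein diet in orange; short lines mark group means and the shape of a point gives the replicate number. Genes left of the dotted line rose and those right of it fell, and the diets do not overlap for any of them: Csad lies between 67.4 and 91.4 CPM on CD and between 695 and 867 CPM on LPD.

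Among the gene lists, that of the amino acid response of Atf4 held the most genes that rose, 4 of the 26. The lists were drawn up with earlier results of these data known, and the activity of Atf4 was not measured. Asns, which makes asparagine, Psat1, which acts in serine synthesis, Trib3, a pseudokinase that dampens the response, and Atf5, a transcription factor related to Atf4, were called. Asns measured 0.968, 0.284 and 1.72 CPM in CD Vec replicates 1 to 3, and 9.45, 25.3 and 32.6 CPM in LPD Vec. Every LPD liver lay above every chow liver, none of which had more than 33 counts of Asns. The log2 fold change was 4.48 ± 0.63 (SE, adjusted p = 0.0227), or 22.3-fold, and Asns was not called when CD Vec replicate 2, LPD Vec replicate 2 or LPD Vec replicate 3 was omitted (adjusted p between 0.067 and 0.0881).

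Psat1 measured 2.19, 0.171 and 2.24 CPM in CD Vec and 15.7, 27.9 and 26.6 CPM in LPD Vec. All LPD livers were higher than all chow livers, by 3.91 ± 0.61 on the log2 scale (adjusted p = 0.0262). Trib3 measured 6.22, 4.83 and 5.94 CPM in CD Vec and 17.7, 17.2 and 31.9 CPM in LPD Vec (1.97 ± 0.31, adjusted p = 0.0262). Neither was called when CD Vec replicate 2 or 3, or LPD Vec replicate 2 or 3, was omitted (adjusted p between 0.0604 and 0.114 for Psat1 and between 0.0851 and 0.11 for Trib3). Atf5 measured 319.5, 197 and 295 CPM in CD Vec and 705, 717 and 922 CPM in LPD Vec. It rose 2.89-fold (1.53 ± 0.18, adjusted p = 0.00987), and its adjusted p lay between 0.015 and 0.0473 when 1 Vec library was left out and was 0.0684 in a fit of only the 6 Vec libraries.

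Of the 27 genes of the Atf4 list that were tested, 16 had an unadjusted p under 0.05 and were higher on LPD and 1 was lower. Diets did not overlap for 15 that were higher and 1 that was lower, and the median log2 fold change was 0.99. The count of 16 was 14 without CD Vec replicate 2. Over all genes tested, 4.34% were higher and 5.54% lower at an unadjusted p under 0.05, and 8.13% were higher and 9.02% lower without overlap. Counts of the lists below can be read against these shares. Fgf21, a hormone that liver secretes when protein is scarce, measured 4.28, 1.65 and 2.45 CPM in CD Vec and 11.5, 42.5 and 41.2 CPM in LPD Vec. Its diets did not overlap, and the log2 fold change of 3.5 ± 0.71 had an adjusted p of 0.0685. Mthfd2, a mitochondrial enzyme of folate metabolism, had a log2 fold change of 2.36 ± 0.44 (adjusted p = 0.053), and Phgdh, the first enzyme of serine synthesis, one of 2.73 ± 0.89 (adjusted p = 0.265) with overlap between diets.

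The mRNA of Atf4 itself did not follow its targets. It measured 53.1, 88.2 and 43.5 CPM in CD Vec and 51.6, 67.9 and 54.6 CPM in LPD Vec, a log2 fold change of -0.09 ± 0.23. Ddit3, which encodes the stress factor Chop, measured 34.4 CPM in CD Vec replicate 2 and between 6.20 and 10.98 CPM in the other 5 livers. Chac1, which degrades glutathione, overlapped between diets, with a log2 fold change of 0.16 ± 0.49. Shmt2, a mitochondrial serine and glycine enzyme, was the member with values lower in all LPD livers, at -0.37 ± 0.13 (adjusted p = 0.317).

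Atf4 and its C/EBP partners bind a composite element with the core TGATGNAA. This core was searched on both strands from 250 bases before to 50 bases after the start of each gene, in the first promoter that RefSeq lists for it on GRCm38.p6. It was present in 4 of the 23 promoters found for called genes that were higher on LPD (17.4%; Asns, Trib3, Slc7a7 and Arhgef2) and in 1 of the 14 found for genes that were lower (7.14%), Gm19522. Of the 10806 promoters of tested genes 2.33% held it, and of all 27025 promoters 4.06%. On the Atf4 list, whose genes were gathered as targets of this factor, it was found in 8 of 24 promoters (33.3%). Asns and Trib3 belong to that list, so their matches among the called genes are not separate from it. These shares were not tested against each other. Promoters are shown for 4 genes that held the core, the called genes Asns, Trib3 and Slc7a7 and the hormone gene Fgf21. The choice was made after the search, and Psat1 and Atf5, called members of the Atf4 list, had 0 matches. They run 5′ to 3′ on the strand of the gene, to 30 bases after the start, with each match in capitals, and matches on the opposite strand appear as their reverse complement.
Asns, chr6:7693180-7693459, minus strand: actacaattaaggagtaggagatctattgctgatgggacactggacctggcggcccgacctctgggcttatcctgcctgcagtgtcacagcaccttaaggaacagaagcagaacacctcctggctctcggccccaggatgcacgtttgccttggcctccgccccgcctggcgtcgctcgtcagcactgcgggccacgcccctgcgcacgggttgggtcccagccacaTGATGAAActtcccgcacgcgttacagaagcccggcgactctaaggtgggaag
Trib3, chr2:152344031-152344310, minus strand: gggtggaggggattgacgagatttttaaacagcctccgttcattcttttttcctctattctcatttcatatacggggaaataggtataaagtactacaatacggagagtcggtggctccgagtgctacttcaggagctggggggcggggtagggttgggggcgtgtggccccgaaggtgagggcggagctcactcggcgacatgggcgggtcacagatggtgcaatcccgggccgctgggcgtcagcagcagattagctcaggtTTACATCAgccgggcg
Slc7a7, chr14:54417915-54418194, minus strand: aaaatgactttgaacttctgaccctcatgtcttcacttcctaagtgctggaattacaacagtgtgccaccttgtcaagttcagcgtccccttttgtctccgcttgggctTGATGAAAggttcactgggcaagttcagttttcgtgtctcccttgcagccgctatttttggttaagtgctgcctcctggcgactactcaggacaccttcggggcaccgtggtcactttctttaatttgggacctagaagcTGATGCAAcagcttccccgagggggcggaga
Fgf21, chr7:45615461-45615740, minus strand: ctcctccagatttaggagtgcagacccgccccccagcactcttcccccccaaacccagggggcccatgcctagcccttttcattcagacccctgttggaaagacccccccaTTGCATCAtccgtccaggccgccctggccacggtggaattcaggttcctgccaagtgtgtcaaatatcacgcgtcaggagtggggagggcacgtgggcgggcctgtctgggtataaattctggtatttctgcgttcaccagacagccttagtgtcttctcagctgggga
In Asns the match began 23 bases before the start and in Fgf21 139 bases before it. Slc7a7 held 2 matches, 141 bases and 1 base before the start, and Trib3 held 1 that began 14 bases after it. A match describes these letters and does not show that a factor was bound.

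Genes that charge tRNAs lay higher on LPD more often than lower. Of 20 aminoacyl-tRNA synthetases, 8 had an unadjusted p under 0.05 and were higher on LPD, none was lower, and 11 did not overlap between diets. Cars, which charges the cysteine tRNA, measured 35.5, 29.3 and 33.4 CPM in CD Vec and 48.8, 57.1 and 62.4 CPM in LPD Vec. It rose 1.71-fold (0.78 ± 0.14, adjusted p = 0.0442), a call that did not hold when CD Vec replicate 2 or 3, or LPD Vec replicate 2 or 3, was omitted (0.113 to 0.234). Gars, the glycine enzyme, had a log2 fold change of 0.71 ± 0.16 (adjusted p = 0.0801), and Yars, the tyrosine enzyme, 0.58 ± 0.13 (adjusted p = 0.0737).

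Among 23 amino acid transporters tested, 1 rose and 1 fell. Slc7a7, the light chain of an exchanger for cationic and neutral amino acids, measured 2.55, 1.59 and 5.21 CPM in CD Vec and 12.4, 14.9 and 18.5 CPM in LPD Vec. Each LPD liver was above each chow liver, by 2.29 ± 0.42 (adjusted p = 0.0478). Slc43a1, a carrier of branched-chain amino acids, measured 6.93, 15.9 and 16.4 CPM in CD Vec and 2.54, 3.30 and 4.36 CPM in LPD Vec (-1.94 ± 0.34, adjusted p = 0.0362). Both were called in 1 of the 6 fits that left out a Vec library, Slc7a7 without CD Vec replicate 3 and Slc43a1 without CD Vec replicate 1, and in none of the rest (adjusted p between 0.0655 and 0.193, and between 0.103 and 0.184). Slc3a2, the heavy chain that Slc7a7 and Slc7a5 need to reach the membrane, was higher in each LPD liver, with a log2 fold change of 1.04 ± 0.22 (adjusted p = 0.069). In all, 7 transporters were higher and 2 lower at an unadjusted p under 0.05, and 4 were higher and 4 lower without CD Vec replicate 2.

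**Figure D2:**
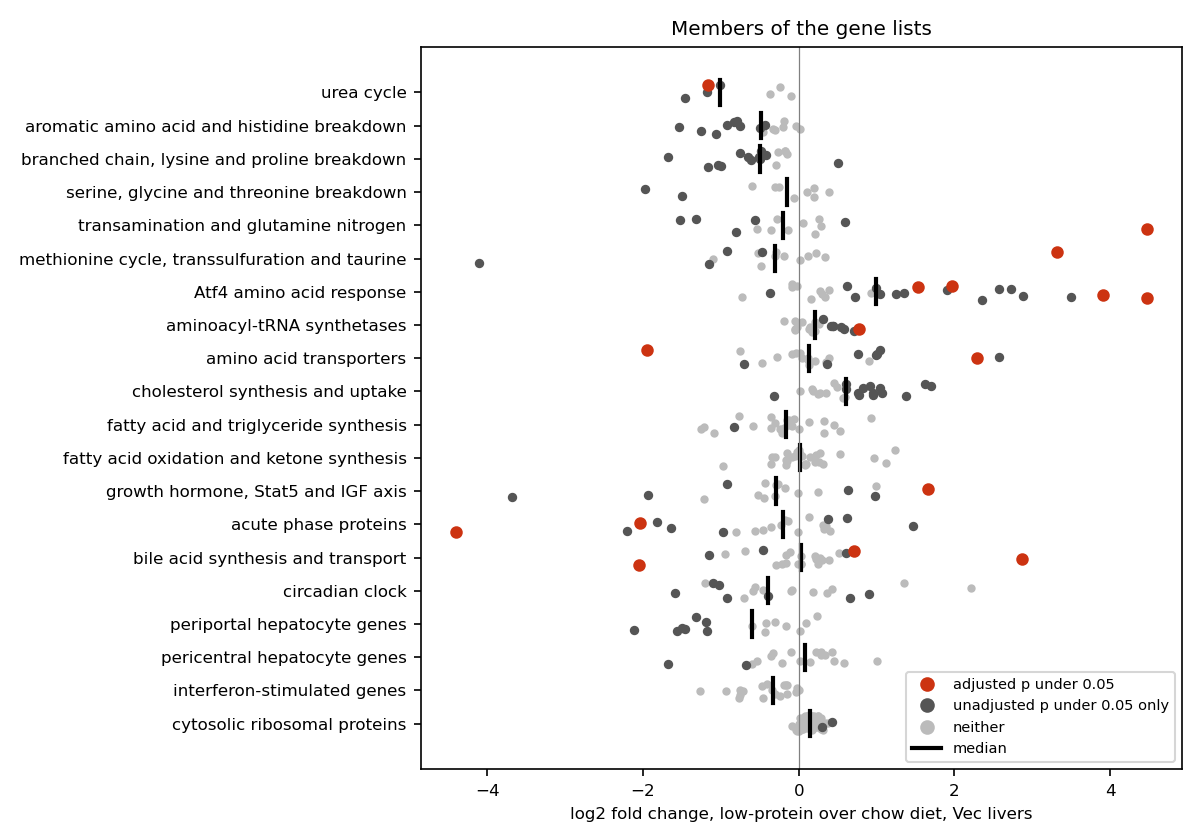
Log2 fold change of LPD over CD in Vec livers for each tested member of 20 gene lists, with medians as black bars; red points passed an adjusted p of 0.05, dark grey points an unadjusted p of 0.05 only. Members of the urea cycle list lie below 0 (median -1.01), and most members of the Atf4 list (median 0.99) and of the cholesterol list (median 0.61) lie above it.

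Urea cycle genes lay lower on the low-protein diet. All 7 genes reported here had a log2 fold change below 0, with a median of -1.01, 4 had an unadjusted p under 0.05, and 5 did not overlap between diets. Asl, which splits argininosuccinate into arginine and fumarate, was the one that was called. It measured 532, 720 and 608 CPM in CD Vec and 333, 231 and 265 CPM in LPD Vec. It fell 2.24-fold (-1.17 ± 0.18, adjusted p = 0.0262), a call that did not hold when CD Vec replicate 2 or 3, or LPD Vec replicate 2 or 3, was omitted (0.0624 to 0.151).

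Further enzymes of the cycle were lower by similar amounts with wider spread. Cps1, which condenses ammonia into carbamoyl phosphate, measured 2367, 2291 and 3301 CPM in CD Vec and 1504, 756 and 1257 CPM in LPD Vec (-1.18 ± 0.45, adjusted p = 0.383). Otc, which makes citrulline, measured 473, 554 and 519.8 CPM in CD Vec and 315, 215 and 240.5 CPM in LPD Vec (-1.01 ± 0.32, adjusted p = 0.251). Ass1, which joins citrulline to aspartate, measured 1641, 921 and 2243 CPM in CD Vec and 735, 434 and 584 CPM in LPD Vec (-1.46 ± 0.43, adjusted p = 0.199). For these 3 enzymes every LPD liver was below every chow liver. Nags, which makes the activator of Cps1, overlapped between diets (-0.10 ± 0.21), as did the aspartate carrier Slc25a13 (-0.24 ± 0.18). The number of urea cycle genes lower at an unadjusted p under 0.05 was 3 or 4 whichever Vec library was left out.

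**Figure D3:**
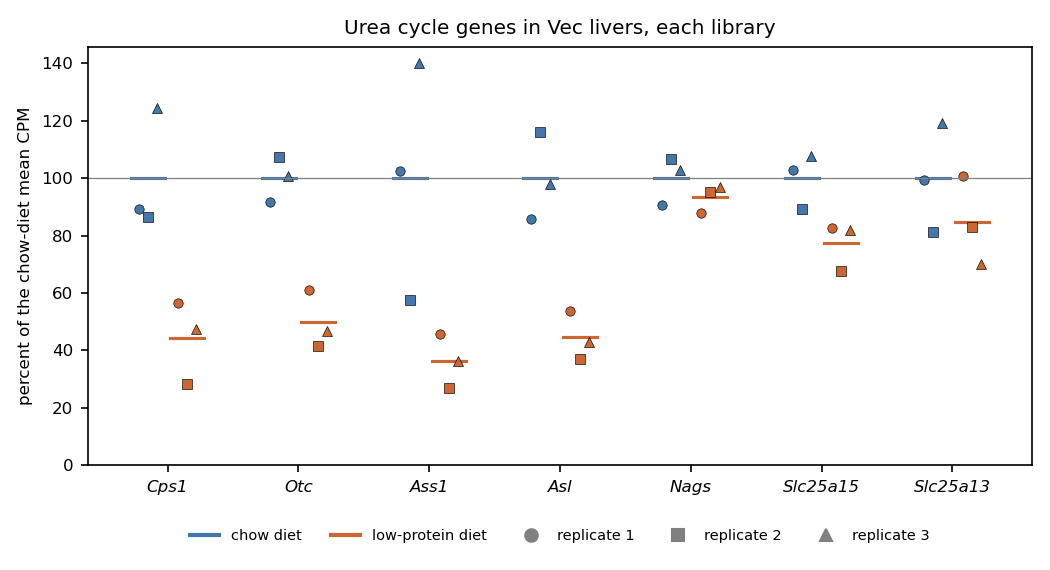
Level of the 7 urea cycle genes reported here in each Vec library as a percent of the mean CPM of the 3 CD Vec libraries (horizontal line at 100), with chow in blue, low-protein diet in orange, short lines for group means and shapes for replicate numbers. LPD points lie below all CD points for Cps1, Otc, Ass1, Asl and Slc25a15 and overlap with them for Nags and Slc25a13.

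Enzymes that break down amino acids showed the same direction across several pathways. Of 20 genes for branched-chain amino acids, lysine and proline, 13 were lower and 1 higher at an unadjusted p under 0.05, 14 lower and 1 higher genes did not overlap, and the median log2 fold change was -0.50. None passed the adjusted threshold. Oat, which converts ornithine on the way to glutamate, measured 461, 526 and 820.0 CPM in CD Vec and 230.2, 145 and 189 CPM in LPD Vec (-1.68 ± 0.31, adjusted p = 0.0504). Aass, the first enzyme of lysine breakdown, was -1.17 ± 0.23 (adjusted p = 0.0608), and Ivd, of leucine breakdown, -1.03 ± 0.21 (adjusted p = 0.0608). Bckdk, the kinase that inactivates the branched-chain ketoacid dehydrogenase, was the exception that was higher, at 0.51 ± 0.18 (adjusted p = 0.338). The 13 became 12 at the lowest when a Vec library was left out.

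For aromatic amino acids and histidine, 9 of 16 genes were lower at an unadjusted p under 0.05 and none was higher, 10 did not overlap, and 15 of 16 were below 0. Hpd, of tyrosine breakdown, measured 1610, 2389 and 2015 CPM in CD Vec and 1301, 744 and 842 CPM in LPD Vec (-1.06 ± 0.29, adjusted p = 0.151). Afmid, of the kynurenine pathway, was -1.25 ± 0.27 (adjusted p = 0.0761), and Ftcd, of histidine breakdown, -0.75 ± 0.17 (adjusted p = 0.0838). Tat and Tdo2, which start tyrosine and tryptophan breakdown, overlapped between diets, at -0.21 ± 0.29 and -0.19 ± 0.21. Without CD Vec replicate 2, 10 of these genes were lower at an unadjusted p under 0.05.

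Serine and nitrogen transfer enzymes were mixed. Of 10 serine, glycine and threonine enzymes tested, 2 were lower at an unadjusted p under 0.05. These were Sds, serine dehydratase (-1.5 ± 0.59, adjusted p = 0.405), and Agxt, the glyoxylate aminotransferase (-1.98 ± 0.50, adjusted p = 0.118). The count was 1 without CD Vec replicate 3, LPD Vec replicate 2 or LPD Vec replicate 3, and 3 in a fit of only the 6 Vec libraries. Agxt2, a mitochondrial aminotransferase outside these lists that degrades methylated arginines, fell. It measured 166, 190.4 and 178 CPM in CD Vec and 90.2, 73.0 and 80.9 CPM in LPD Vec (-1.13 ± 0.17, adjusted p = 0.0227). Omitting CD Vec replicate 2 or 3, or LPD Vec replicate 2 or 3, removed the call (0.0582 to 0.114). Of 14 genes for transamination and glutamine nitrogen, Gpt (-0.80 ± 0.18, adjusted p = 0.0801), Got1 (-1.52 ± 0.48, adjusted p = 0.249), Gls2 (-1.32 ± 0.43, adjusted p = 0.26) and the glutamine carrier Slc38a3 (-0.56 ± 0.23, adjusted p = 0.442) were lower at an unadjusted p under 0.05. Higher at that threshold were Asns, which was called, and Kyat1, a kynurenine aminotransferase (0.60 ± 0.21, adjusted p = 0.3). These 2 became 1 without CD Vec replicate 1 or LPD Vec replicate 3.

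Csad, which makes the taurine precursor hypotaurine from cysteine sulfinate, rose. It measured 76.1, 67.4 and 91.4 CPM in CD Vec and 773, 867 and 695 CPM in LPD Vec. The gap between diets was far wider than the spread within them, at 9.94-fold (3.31 ± 0.39, adjusted p = 0.00987), and the adjusted p without CD Vec replicate 2 was 0.0604. Other genes of methionine and sulfur metabolism were lower or overlapped. Of 15 tested, 4 were lower at an unadjusted p under 0.05, among them Ahcy, which hydrolyses S-adenosylhomocysteine (-1.15 ± 0.23, adjusted p = 0.0685), and Nnmt, which methylates nicotinamide. Nnmt measured 10.9, 24.0 and 37.8 CPM in CD Vec and 2.69, 0.718 and 0.821 CPM in LPD Vec (-4.11 ± 0.92, adjusted p = 0.0876). The 4 lower genes became 2 without CD Vec replicate 1, LPD Vec replicate 2 or LPD Vec replicate 3, and 7 in a fit of only the 6 Vec libraries.

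Cholesterol synthesis genes lay higher on LPD as a group, without a single call. Of 24 genes, 23 had a log2 fold change above 0, 13 had an unadjusted p under 0.05 and were higher, 13 higher genes did not overlap, and the median was 0.61. Sqle, squalene epoxidase, measured 41.6, 37.8 and 69.9 CPM in CD Vec and 143, 182 and 135 CPM in LPD Vec (1.63 ± 0.31, adjusted p = 0.0532). Hmgcs1, which makes HMG-CoA, measured 242, 80.5 and 209 CPM in CD Vec and 564, 704 and 453 CPM in LPD Vec (1.70 ± 0.39, adjusted p = 0.0886). The chow liver that was lowest for Hmgcs1 was CD Vec replicate 2, and without it 8 of the list were higher at an unadjusted p under 0.05. Ebp, a sterol isomerase, was the member below 0 (-0.31 ± 0.13, adjusted p = 0.429).

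Bile acid genes included 3 calls in both directions. Cyp39a1, an oxysterol hydroxylase, measured 15.5, 4.15 and 10.2 CPM in CD Vec and 87.7, 54.4 and 76.2 CPM in LPD Vec (2.86 ± 0.44, adjusted p = 0.0262). Abcb4, which moves phosphatidylcholine into bile, measured 278, 272 and 275 CPM in CD Vec and 467, 403 and 475 CPM in LPD Vec (0.71 ± 0.12, adjusted p = 0.0324). Slco1a4, an organic anion and bile acid importer, measured 67.5, 40.9 and 31.0 CPM in CD Vec and 16.8, 9.63 and 7.23 CPM in LPD Vec (-2.05 ± 0.35, adjusted p = 0.0328). Diets were separate for all 3, and none was called when CD Vec replicate 2, LPD Vec replicate 2 or LPD Vec replicate 3 was omitted, nor Cyp39a1 and Abcb4 when CD Vec replicate 3 or LPD Vec replicate 1 was (0.0542 to 0.186). Slc10a2, the sodium-dependent bile acid importer, was lower in each LPD liver, at -1.15 ± 0.24 (adjusted p = 0.0685). The remaining bile acid genes left the median of the 24 at 0.02.

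Acute phase proteins, which liver secretes in inflammation, split. Orm2 measured 17.2, 36.2 and 20.6 CPM in CD Vec and 5.13, 6.84 and 6.001 CPM in LPD Vec, and it fell 4.11-fold (-2.04 ± 0.34, adjusted p = 0.0301). Orm3 measured 3.92, 6.65 and 2.86 CPM in CD Vec and 0.240, 0.0845 and 0.308 CPM in LPD Vec (-4.41 ± 0.58, adjusted p = 0.0135). These orosomucoid genes and Orm1 (-1.82 ± 0.41, adjusted p = 0.0819) are neighbouring, closely similar copies on chromosome 4, and how reads shared among them were counted is not stated. With 1 Vec library omitted, Orm2 was called only where that was CD Vec replicate 1 (otherwise 0.0617 to 0.179), and Orm3 was not called where it was LPD Vec replicate 2 or 3 (0.0591 to 0.0881). Serum amyloid genes Saa1 and Saa2 were -1.64 ± 0.52 and -2.21 ± 0.55 (adjusted p = 0.246 and 0.119). In contrast, the fibrinogen genes Fga, Fgb and Fgg and the inhibitor Itih4 were higher in every LPD liver, with log2 fold changes of 0.41 ± 0.26, 0.33 ± 0.27, 0.35 ± 0.26 and 0.62 ± 0.15, none of them called. Of 22 genes in the list 3 were higher and 6 lower at an unadjusted p under 0.05, and 7 did not overlap in each direction. The 3 became 5 in a fit of only the 6 Vec libraries. Over all genes tested, 4.34% were higher and 5.54% lower at that threshold, and 8.13% were higher and 9.02% lower without overlap.

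In growth hormone signalling, Bcl6, a repressor that competes with Stat5, measured 20.4, 14.7 and 22.3 CPM in CD Vec and 58.5, 70.8 and 52.2 CPM in LPD Vec. It rose 3.16-fold (1.66 ± 0.25, adjusted p = 0.0227), a call that did not hold when CD Vec replicate 2 or 3, or LPD Vec replicate 2 or 3, was omitted (0.0521 to 0.114). Cish, a feedback target of Stat5, measured 7.69, 25.4 and 81.5 CPM in CD Vec and 3.89, 1.77 and 3.33 CPM in LPD Vec. The chow livers spread widely, and the log2 fold change of -3.68 ± 0.75 had an adjusted p of 0.0697. Stat5a and Stat5b were higher in every LPD liver (0.98 ± 0.29 and 0.63 ± 0.18, adjusted p = 0.198 and 0.194). Igfals, which stabilizes IGF-1 in blood, was lower in every LPD liver (-0.92 ± 0.25, adjusted p = 0.153). Of the 17 genes of this list, 3 were higher and 3 lower at an unadjusted p under 0.05, with a median of -0.29. The 3 lower genes became 5 in a fit of only the 6 Vec libraries. Of 20 male-biased growth hormone targets, 1 was higher and 2 lower (median -0.41). Up to 7 of them were lower when a Vec library was left out.

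Further called genes had varied roles. Slc34a2, a sodium and phosphate cotransporter, measured 0.357, 0.341 and 0.364 CPM in CD Vec and 6.19, 12.6 and 42.2 CPM in LPD Vec. It was close to undetected on chow, so the log2 fold change of 5.82 ± 0.77 (adjusted p = 0.0157) has an uncertain size, and adjusted p was 0.0609 and 0.067 without CD Vec replicate 2 or 3. Arhgef2, a guanine nucleotide exchange factor, measured 5.30, 3.35 and 5.21 CPM in CD Vec and 21.3, 28.5 and 47.4 CPM in LPD Vec (2.81 ± 0.34, adjusted p = 0.00987; 0.0604 without CD Vec replicate 2). Slc5a1, a sodium and glucose cotransporter, measured 1.02, 0.569 and 0.729 CPM in CD Vec and 4.22, 3.42 and 5.13 CPM in LPD Vec (2.45 ± 0.40, adjusted p = 0.0301). Avpr1a, a vasopressin receptor, measured 11.97, 12.2 and 22.5 CPM in CD Vec and 48.8, 47.2 and 51.0 CPM in LPD Vec (1.66 ± 0.26, adjusted p = 0.0262). The P450 gene Cyp2c69, which has close paralogs, rose 11.6-fold (3.53 ± 0.55, adjusted p = 0.0262), and Klhdc8a, Unc13b and Tmem229a rose by between 1.96 and 2.08 on the log2 scale. Apart from Slc34a2 and Arhgef2, none of these genes was called when CD Vec replicate 2, LPD Vec replicate 2 or LPD Vec replicate 3 was omitted. The same held for CD Vec replicate 3 with the exception of Avpr1a, and for LPD Vec replicate 1 in Slc5a1, Avpr1a and Tmem229a (0.0502 to 0.167 where a call was lost).

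Among genes that fell, Pigr, the receptor that carries immunoglobulin A into bile, measured 1590, 1801 and 1475 CPM in CD Vec and 523, 434 and 437 CPM in LPD Vec. It fell 3.49-fold (-1.80 ± 0.31, adjusted p = 0.0328). Sulf2, which trims sulfate from heparan sulfate, measured 32.4, 19.1 and 26.2 CPM in CD Vec and 6.19, 2.79 and 3.54 CPM in LPD Vec (-2.64 ± 0.30, adjusted p = 0.00987). Dct, a melanin synthesis enzyme, measured 3.97, 6.25 and 5.05 CPM in CD Vec and 0.432, 0.253 and 1.28 CPM in LPD Vec (-2.97 ± 0.53, adjusted p = 0.0383). Diets were separate for these genes. Ildr2 (-1.32 ± 0.23, adjusted p = 0.0328), Lonrf1 (-1.82 ± 0.31, adjusted p = 0.0337), Them7 (-2.20 ± 0.30, adjusted p = 0.0156), Prg4, which encodes lubricin (-0.84 ± 0.14, adjusted p = 0.0301), and Sec16b, a protein of endoplasmic reticulum exit sites (-0.57 ± 0.10, adjusted p = 0.0383), also fell. When LPD Vec replicate 2 was omitted, none of these genes but Sulf2 was called, and Sulf2 was not called without LPD Vec replicate 3. Omitting CD Vec replicate 2 or 3, LPD Vec replicate 1 or LPD Vec replicate 3 also removed calls (0.0502 to 0.193), and omitting CD Vec replicate 1 removed none of them.

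Zonation markers were compared because urea synthesis is periportal. Of 15 periportal genes, several of which are also in the urea cycle and amino acid lists, 7 were lower and none higher at an unadjusted p under 0.05, with a median log2 fold change of -0.60. Of these genes 12 lay below 0 and 3 above it, and 8 were lower without overlap. Their summed level, most of which was Alb, overlapped between diets, at 77720 to 90280 CPM in CD Vec and 67310 to 94980 CPM in LPD Vec. Of 18 pericentral genes 2 were lower and none higher, with a median of 0.08. The number of lower periportal genes ranged from 3 to 8 and of lower pericentral genes from 1 to 5 when 1 Vec library was left out, and up to 2 pericentral genes were then higher.

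Markers of other liver cells gave no call. For Kupffer cells, T and NK cells, neutrophils, stellate cells and endothelial cells, no gene had an unadjusted p under 0.05 in either direction, although 1 neutrophil gene was higher without LPD Vec replicate 1 and 1 stellate cell gene without LPD Vec replicate 3. Summed Kupffer cell markers (13 genes) lay between 167 and 352 CPM in CD Vec and between 241 and 309 CPM in LPD Vec. Summed T and NK cell markers lay between 4.23 and 7.39 CPM in CD Vec and between 4.03 and 7.18 CPM in LPD Vec, both with overlap. Of 7 B cell genes tested, Cd79b and Ms4a1 were higher at an unadjusted p under 0.05, and neither was so without CD Vec replicate 2. Of 9 cholangiocyte genes, Tstd1 was lower at that threshold (-0.45 ± 0.16, adjusted p = 0.333). Of 6 adipocyte genes, Adipoq, Plin1 and Lep had too few counts to be tested. The other 3, Cfd, Plin4 and Cidec, lay below 0 with a median of -1.64, and Cfd had an unadjusted p under 0.05 (-2.82 ± 1.23, adjusted p = 0.475). Each of them overlapped between diets, and none was lower at that threshold without CD Vec replicate 1, LPD Vec replicate 1 or LPD Vec replicate 3. Their summed level also overlapped, and it lay between 6.41 and 22.6 CPM in CD Vec and between 4.0 and 7.39 CPM in LPD Vec.

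The dietary change was also measured in c-MET/β-catenin livers. That comparison shares no library with the one in Vec livers, but both came from the same fit and share its estimate of the spread. Tumor burden, which the study reported as lower on LPD at that time, goes together with diet in these livers. The comparison called 1208 genes as higher (8.66%) and 1576 as lower (11.3%). Of the 43 genes called in Vec livers, 21 had the same direction in c-MET/β-catenin livers and 22 the opposite. The share with the same direction was 48.8%, close to the 47.3% over all genes tested. Of the 21, 12 were called there too. They included Csad (2.40, adjusted p = 0.00161), Slc34a2 (2.49, adjusted p = 0.0163), Abcb4 (0.58, adjusted p = 0.00611), Slco1a4 (-2.88, adjusted p = 0.000614), Slc43a1 (-2.17, adjusted p = 0.00175) and Agxt2 (-0.82, adjusted p = 0.00542). A further 9 were called in the opposite direction, among them Arhgef2 (-1.38, adjusted p = 0.0113), Cyp2c69 (-2.03, adjusted p = 0.0116), Avpr1a (-1.29, adjusted p = 0.00518) and Pigr (1.47, adjusted p = 0.00662).

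A test of the difference between the diet effects called 29 of the 43 genes, whereas 8.91% of all genes were called by it. The Vec libraries that chose the 43 also enter this test, so it is not independent of the choice. Asns had a log2 fold change of 4.48 in Vec livers and 0.20 in c-MET/β-catenin livers (difference of effects -4.28, adjusted p = 0.0117). Its level in c-MET/β-catenin livers was 8.38, 19.2 and 12.7 CPM on CD and 9.43, 21.2 and 15.3 CPM on LPD, so it was above all CD Vec livers on either diet. On CD, the mean in c-MET/β-catenin livers was above that in Vec livers for 22 of the 26 genes that rose and below it for 15 of the 17 that fell, a count in which the CD Vec libraries that chose the genes also enter. Trib3 had 1.97 and -0.66 (difference -2.63, adjusted p = 0.00621), and Psat1 3.91 and -0.38 (difference -4.29, adjusted p = 0.0107). Asl had -1.17 and 0.33 (difference 1.5, adjusted p = 0.00751). The cholesterol list had a median log2 fold change of 0.61 in Vec livers and -1.65 in c-MET/β-catenin livers, the urea cycle list -1.01 and 0.33, and the Atf4 list 0.99 and -0.32. When the run of each library in the file header was added as a covariate, the test of the difference called 9 of the 43 genes. CD c-MET/β-catenin replicates 1 and 2 lay alone in a header run, and CD replicate 3 and all LPD c-MET/β-catenin libraries lay in another. Diet and run can therefore not be fully told apart in these livers.

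**Figure D4:**
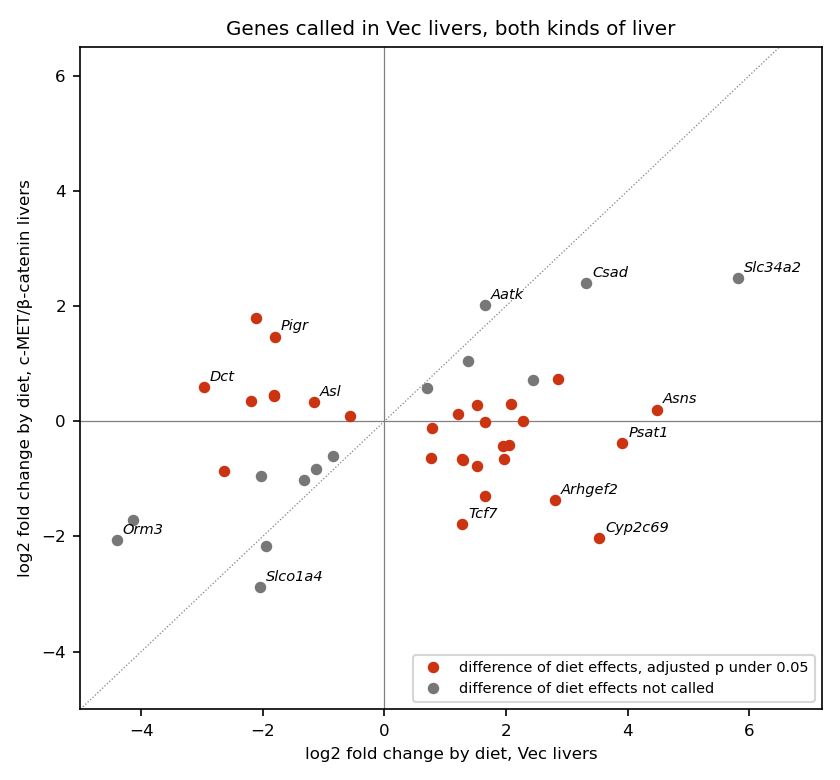
Log2 fold change of LPD over CD for the 43 genes called in Vec livers, plotted for Vec livers on the horizontal and c-MET/β-catenin livers on the vertical axis, with the dotted line where both are equal; red points are genes whose diet effects differed at an adjusted p under 0.05. Csad, Aatk and Slco1a4 lie near the dotted line, Asns and Psat1 near 0 on the vertical axis, and Arhgef2, Cyp2c69 and Pigr in the quadrants of opposite sign.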

How the data were processed

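RNA from snap-frozen whole liver was sequenced in 12 mice, 1 library per mouse. Per the labels, ribosomal RNA was depleted, but a stranded mRNA kit is named in the study's methods. The table of integer read counts per gene was deposited by the authors, without normalization, after alignment to mm10 with HISAT2 and counting with featureCounts. Tool versions, the strand setting and the handling of reads shared by several genes are not given in the sources used here, so overlapping genes and near-identical copies are uncertain. Symbols came from RefSeq on GRCm38.p6 for 25275 of 27179 genes and from GENCODE for 18 more, and 1886 had none.

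Groups followed the titles and descriptions in the labels. The edgeR 4.0.16 package in R 4.3.3 was used for differential expression (TMM factors from 0.864 to 1.12, filterByExpr, robust quasi-likelihood test). All 4 groups entered 1 fit, so the estimate of the spread also draws on the c-MET/β-catenin livers, and the Benjamini-Hochberg adjustment ran over 13947 genes. P-values set the difference between diets against the spread between mice, which was estimated over all 4 groups with information shared across genes. In the smallest library, 1 CPM was about 19.5 reads. On simulated data for LPD Vec against CD Vec (13407 genes), 98% of 200 genes changed 4-fold were called and 3.45% of calls were not changed genes. The changed genes were drawn from the better expressed ones. No simulated library stood apart as CD Vec replicate 2 did, so these shares need not hold for the real libraries. No 2 Vec libraries of the same diet agreed within sampling noise.

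Gene lists (41 lists, 747 genes) and the libraries described were chosen with earlier results of these data known, and lists were described by counts and medians without a set test. Of the genes in the urea cycle, periportal and cholangiocyte lists, 2 are not reported here, and the counts and medians leave them out. Genes named were those of the lists and, among called genes with a full symbol and a mean of at least 1 CPM in a diet group, up to 15 with the largest change in each direction. Ggct, Aatk, Dusp14, the gene models and the further called genes listed where diet effects differed are outside that rule and were named after their values were seen, as were genes named for the library that stood apart. Alternatives were DESeq2 1.42.0, other size factors, no filter, only Vec libraries, a block for the replicate number, a term for header runs, and leaving out each library. The header of the file carries dataset numbers that fall into 3 runs, which the labels do not explain. Vec libraries of both diets occur in 2 of these runs. In c-MET/β-catenin livers, CD replicates 1 and 2 lie alone in a run, and CD replicate 3 shares a run with all LPD libraries. As no called gene overlapped between diets, their direction within a run was already fixed, and a term for the run left 13 of the 43 called.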

Additional observations from a re-analysis of the deposited data

Results flagged for a closer look

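For 29 of the 43 genes called in Vec livers, the effect of diet differed between Vec and c-MET/β-catenin livers at an adjusted p under 0.05 in the test of the difference itself. With a term for header runs, that test called 9 of the 43. Diet and tumor burden cannot be told apart in c-MET/β-catenin livers. Values below are the log2 fold change of LPD over CD in c-MET/β-catenin livers minus that in Vec livers. The genes were picked with the same Vec libraries that enter the difference, and the part of that choice in the size of the differences was not tested.

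Among genes that rose in Vec livers, the difference was negative for 20: Smagp (-1.41), Cars (-0.89), Cyb5r1 (-1.1), Tcf7 (-3.06), Ggct (-1.94), Crlf2 (-1.96), Atf5 (-1.25), Lrfn3 (-2.31), Avpr1a (-2.95), Bcl6 (-1.67), Tmem229a (-2.39), Trib3 (-2.63), Unc13b (-2.45), Klhdc8a (-1.79), Slc7a7 (-2.28), Arhgef2 (-4.18), Cyp39a1 (-2.14), Cyp2c69 (-5.56), Psat1 (-4.29) and Asns (-4.28). Of these, Asns and Psat1 act in amino acid synthesis, Cars charges a tRNA, Slc7a7 transports amino acids, and Trib3 and Atf5 belong to the Atf4 response.

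Among genes that fell in Vec livers, the difference was positive for 9: Dct (3.56), Sulf2 (1.77), Them7 (2.55), Gm19522 (3.91), Gm14403 (2.27), Lonrf1 (2.25), Pigr (3.27), Asl (1.5) and Sec16b (0.659). Asl is the urea cycle enzyme of this group, and Pigr and Gm19522 moved in opposite directions in the 2 kinds of liver with a call in each.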

How the results depend on the processing

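With 3 mice per diet, the number of called genes depended on the processing. Against 43 calls, DESeq2 gave 340 (144 higher and 196 lower, so 42.4% higher against 60.5%, and 43 of them shared), total counts without TMM factors gave 66, a term for header runs gave 16, and only the 6 Vec libraries gave 3. The last, without the spread of the other groups, were Csad, Cyp2c69 and Pigr. DESeq2 size factors in edgeR gave 47 and no filter gave 46, of which 50% were higher. Leaving out 1 of the 12 libraries gave 5 to 104 calls. Without a c-MET/β-catenin library the count was 104, 65 and 51 (CD replicates 1 to 3) and 41, 47 and 26 (LPD replicates 1 to 3). Those livers are not part of the comparison of diets in Vec livers, but they enter its estimate of the spread and the choice of genes tested. Total counts moved the median of all genes from -0.03 to 0.07 on the log2 scale.

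The number of the 43 genes with the same direction in c-MET/β-catenin livers was 21 and ranged from 18 to 22 when a library was left out. The number whose diet effects differed was 29, ranged from 20 to 29 when a library was left out, and was 9 with the term for header runs. These 2 counts could not be computed from the Vec libraries alone. Over 817 repeats of single-gene results, 510 kept direction and call, 307 kept direction without the call and 0 reversed, which is no sign of stability because the diets did not overlap for these genes. Of 779 repeats of list medians, 737 moved by less than the spread between replicates and 42 moved more. In a fit with a replicate block, 16 genes were called (10 higher and 6 lower), 14 of them among the 43 (Arhgef2, Asns, Atf5, Crlf2, Csad, Dusp14, Ggct, Ildr2, Klhdc8a, Orm3, Prg4, Slc34a2, Sulf2 and Them7), and the other 29 had an adjusted p between 0.0582 and 0.0922. Same-numbered Vec libraries had correlations of 0.13, 0.03 and 0.07 between their deviations from group means, so the numbers were not taken to pair mice.

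Depth limited genes near or under 1 CPM on one diet, such as Asns and Slc34a2 on chow, whose fold changes are imprecise.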

Other observations

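Lists of ribosomal protein, interferon, nucleotide, polyamine and fat metabolism genes and of chaperones held no called gene in Vec livers. Of 58 cytosolic ribosomal protein genes, 55 had a log2 fold change above 0, with a median of 0.15 and 2 at an unadjusted p under 0.05. Without CD Vec replicate 2, in which their summed level was 13110 CPM against 8855 and 9015 CPM in the other chow livers, 43 were higher at an unadjusted p under 0.05. All 20 interferon-stimulated genes lay below 0 (median -0.33), none at an unadjusted p under 0.05, but 3 were lower at that threshold without CD Vec replicate 1, 4 with a term for header runs and 5 in a fit of only the 6 Vec libraries. Of 25 nucleotide genes 21 lay below 0, and of 11 polyamine genes 10. Among 24 fatty acid and triglyceride synthesis genes 1 was lower at an unadjusted p under 0.05, and their summed level spread from 9700 to 50260 CPM over the chow livers. The median of this list was -0.17, and it was 0.32 with 6 genes higher and 1 lower without CD Vec replicate 1, and -0.29 with 5 lower without CD Vec replicate 2. Among 29 fatty acid oxidation genes none was higher or lower, 2 were higher without CD Vec replicate 1, 2 were lower without LPD Vec replicate 1, and the median was 0.02. Of 23 endoplasmic reticulum chaperones 1 was higher and 1 lower, 7 were higher without CD Vec replicate 2, and 6 and 4 were lower without CD Vec replicates 1 and 3. Of the 41 lists, 31 held no called gene. Over all genes tested, 4.34% were higher and 5.54% lower at an unadjusted p under 0.05, shares near those of the fat metabolism and chaperone lists.

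No clock gene was called, although several did not overlap between diets. Nr1d1, a clock repressor, measured 127, 77.1 and 88.1 CPM in CD Vec and 172, 195 and 179 CPM in LPD Vec (0.90 ± 0.22, adjusted p = 0.0981). Per2 measured 74.5, 133 and 62.5 CPM in CD Vec and 35.5, 26.6 and 27.2 CPM in LPD Vec (-1.59 ± 0.37, adjusted p = 0.0957). Of 19 clock genes 2 were higher and 5 lower at an unadjusted p under 0.05, and 4 higher and 7 lower genes did not overlap. The 5 became 3 without LPD Vec replicate 2 or 3 and 9 in a fit of only the 6 Vec libraries. Over all genes tested, 4.34% were higher and 5.54% lower at that threshold, and 8.13% were higher and 9.02% lower without overlap. The times at which single mice were killed were not used here.

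CD Vec replicate 2 also differed in histocompatibility genes, which were chosen after their values were seen and which have close copies. H2-T10 measured 54.6 CPM in it and between 1.85 and 2.87 CPM in the other Vec libraries, and H2-Eb1 measured 1.08 CPM against 12.04 to 26.7 CPM. LPD c-MET/β-catenin replicate 3 had similar values for both, at 54.0 and 1.92 CPM. H2-T23 measured 32.6 CPM in CD Vec replicate 2 and 34.9 CPM in LPD c-MET/β-catenin replicate 3, against 225 to 473 CPM in the other 10 libraries. The heat shock gene Hspa1b and the endoplasmic reticulum stress gene Creld2 were highest in CD Vec replicate 2. Hspa1b measured 121 CPM there against 5.16 to 34.9 CPM in the other 11 libraries, and Creld2 472 CPM against 26.9 to 105 CPM.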
